A study of Mus musculus with 13 samples.

Results

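Interferon-inducible and antigen presentation genes were followed here as a set of 34 mouse genes, found by symbol among the 32793 rows of a gene expression table made from embryonic foregut and trachea. All 34 were in the table. Interferons are secreted proteins that bind cell surface receptors, and the kinases of those receptors activate Stat transcription factors, which with Irf9 switch on a large group of genes. The products of these genes act against viruses and intracellular pathogens, and some of them load peptides onto class I molecules for display to T cells. Many of the genes keep a low level in uninfected tissue and rise together when interferon is present. The members were chosen with regard to the low level of Iigp1 in mutant trachea, that is, selected on the contrast of E11.5 mutants with controls, so the members' values of that contrast stand below as a description, and nothing is supported with them.

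RNA was sequenced from foreguts at E10.5 and from tracheas at E11.5, each from an embryo dissection. The mutants carried Gli3TFlag/+ together with a Cre allele, and Cre active in the early foregut endoderm and mesoderm turns on a Flag-tagged, truncated Gli3 that acts as a repressor of Hedgehog targets. The controls were labelled Gli3TFlag/+, and so carried the same transgene without Cre. There were 3 control and 3 mutant libraries at E10.5, and 3 control and 4 mutant libraries at E11.5. The labels give the strain as C57BL/6 and the methods give an outbred background, and the part of genetic background in any value was not tested. The RNA was amplified before library construction, and the kit did not mark the strand.

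Depth and tissue content bear on the low genes. The E10.5 libraries held 15366076 to 17988461 estimated counts and the E11.5 libraries held 9646701 to 15916434, with the lowest total in E11.5 mutant replicate 4. A floor of 3 counts was worth 0.158 to 0.194 CPM (counts scaled to the normalised size of each library) at E10.5 and 0.189 to 0.336 CPM at E11.5, and it covers counting error only. As a check of the labels, Gli3 stood 0.87 higher on the log2 scale in E11.5 mutants (SE 0.136, edgeR quasi-likelihood test, adjusted p = 0.0102) and 0.35 higher at E10.5 (SE 0.0682, adjusted p = 0.0588). Foregut mesenchyme and epithelium markers were above 0 in every library. The summed level of 16 macrophage and leukocyte markers was 36.2 to 39.8 CPM in E10.5 controls, 52.8 to 69.7 in E10.5 mutants, 78.6 to 99.5 in E11.5 controls and 103 to 160 in E11.5 mutants. The summed level of 9 epithelium markers was 400 to 515, 469 to 638, 190 to 253 and 341 to 551 CPM in the same order of groups. The sum of 12 cardiomyocyte markers ran from 65.7 CPM in an E11.5 control to 5103 in an E11.5 mutant. In dissected tissue, fewer cells of a type and less RNA per cell cannot be told apart.

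Mean levels of the members ran from 741 to 0.104 TPM, and most of the classical antiviral genes were low. TPM values are scaled by transcript length and library total, and so allow levels to be compared between genes. Over the 13 libraries the highest mean was that of Ifitm2, a membrane protein that restricts virus entry, at 741 TPM. B2m, the invariant light chain of class I molecules, followed at 133 TPM, then Ifitm3 at 75.0 and Ifitm1 at 15.8. Iigp1 was the 5th at 11.8 TPM. The class I heavy chains H2-D1 and H2-K1 had 10.4 and 8.07 TPM, the antiviral RNA-binding protein Ifit2 had 6.81, and Stat2, the partner of Irf9 in the type I response, had 6.62. The remaining members had means under 4 TPM.

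**Figure D1:**
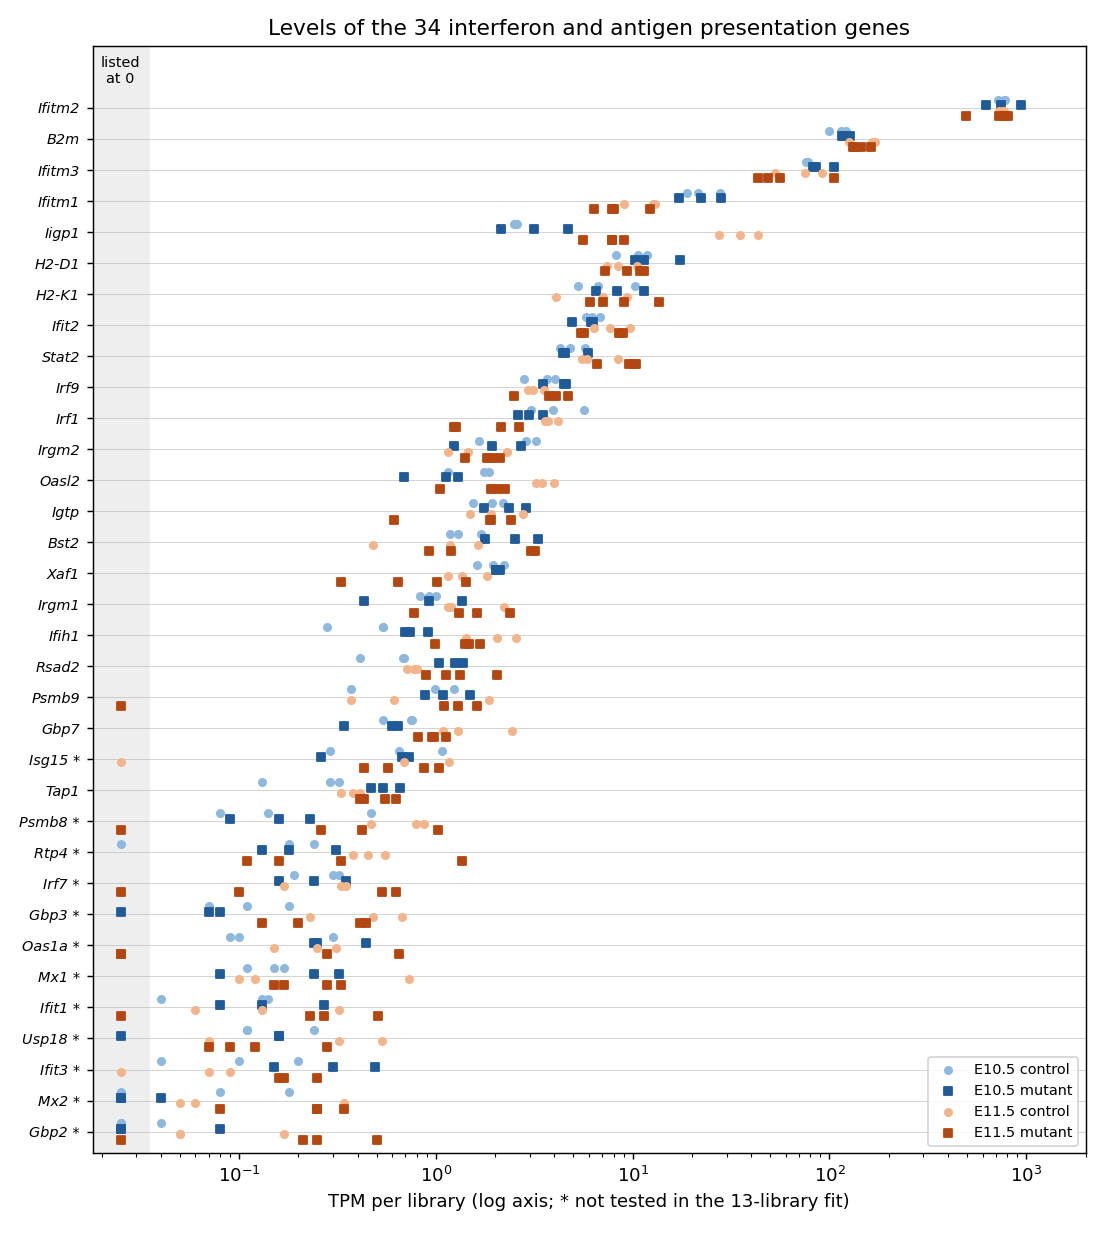
TPM of each of the 34 genes in each of the 13 libraries on a log axis, with values listed at 0 in the grey band, genes ordered by mean TPM and an asterisk on the 12 that were too low to test. Ifitm2 lies at the top with a mean of 741 TPM, the asterisked genes stay at or under 1.35 TPM, and Iigp1 shows the E11.5 controls apart from every other library.

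A group of 12 members did not pass the filter on low counts in the fit of all 13 libraries. It held the GTPases Gbp2 and Gbp3, the RNA-binding proteins Ifit1 and Ifit3, the ubiquitin-like modifier Isg15 and its protease Usp18, Irf7, a transcription factor that amplifies the type I response, Oas1a, which senses double-stranded RNA, the dynamin-like GTPases Mx1 and Mx2, the immunoproteasome subunit Psmb8 and the receptor chaperone Rtp4. Mx2 is annotated as a polymorphic pseudogene. The highest value of any of the 12 in a library was 17 counts, or 1.23 CPM, and 19 of their 156 values were 0. Their counts summed to between 33 and 39 in E10.5 controls, 36 and 42 in E10.5 mutants, 41 and 53 in E11.5 controls, and 21 and 69 in E11.5 mutants. Scaled to library size, the sums were 1.74 to 2.31, 2.10 to 2.46, 2.91 to 3.91 and 2.35 to 5.01 CPM in the same order. The genotypes overlapped at each stage, the E11.5 controls lay above the E10.5 controls, and the mutant stages overlapped. In controls Gbp2, Gbp3 and Rtp4 each had all E11.5 libraries above all E10.5 libraries. Over the genes tested, 41.7% had control stages that did not overlap, in either direction. Gbp3 had 0.958, 0.352 and 0.711 CPM against 0.296, 0.112 and 0.158, and Rtp4 had 0.352 to 0.479 against 0 to 0.211. Gbp2 had 3, 1 and 1 counts against 1, 0 and 0, none above the floor of 3 counts, so nothing is read from it. None of the 12 was tested in that fit.

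Promoter sequence was available for 29 of the 34 members in 34 windows from RefSeq (build GRCm38), each of 300 bases from 250 before to 50 after a start site. Iigp1, Mx1, Mx2, Usp18 and Rtp4 had no window, so the Iigp1 promoter was not searched. The interferon-stimulated response element, searched as GAAANNGAAA on both strands (TTTCNNTTTC on the other), matched in 17 of the 34 member windows (50%), against 3.44% of the 32851 windows of all genes. The gamma-activated sequence, searched as TTCNNNGAA, which reads the same on both strands, matched in 9 member windows (26.5%), against 8.30% of all windows. The first motif was found in 17 members, of which 6 were among the 12 genes too low to test and 11 were not. Mx1, Mx2, Usp18 and Rtp4 are among those 12 and were not searched, so tested and untested genes are not compared by share. Both motifs were held by 6 members. A match is a description of letters and not a bound site. The 60-base stretches below show this motif in genes from both ends of the range of levels, with the matching letters in capitals, written 5′ to 3′ on the strand of the gene and outside annotated exons.
Isg15, chr4:156200856-156200915, minus strand: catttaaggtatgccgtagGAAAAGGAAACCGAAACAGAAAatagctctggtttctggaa
Ifit1, chr19:34640769-34640828, plus strand: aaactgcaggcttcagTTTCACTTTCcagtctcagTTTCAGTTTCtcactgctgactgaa
Igtp, chr11:58199496-58199555, plus strand: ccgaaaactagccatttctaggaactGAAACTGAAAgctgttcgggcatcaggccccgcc
Gbp7, chr3:142530258-142530317, plus strand: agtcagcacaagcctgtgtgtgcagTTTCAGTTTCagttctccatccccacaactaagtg
Rsad2, chr12:26456538-26456597, minus strand: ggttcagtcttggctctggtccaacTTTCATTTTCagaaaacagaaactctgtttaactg
Stat2, chr10:128270251-128270310, plus strand: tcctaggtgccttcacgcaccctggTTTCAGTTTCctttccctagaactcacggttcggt
B2m, chr2:122147523-122147582, plus strand: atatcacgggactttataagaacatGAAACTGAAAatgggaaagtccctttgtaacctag
Isg15 held 3 overlapping matches and Ifit1 held 2, and their highest counts in a library were 9 and 11, while B2m with 1 match was the second most abundant member.

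Iigp1 encodes an interferon-inducible GTPase of the IRG family, which attacks the vacuoles of intracellular parasites in mouse cells. The gene lies on chromosome 18 from 60376027 to 60392634 on the plus strand (GRCm38, GENCODE vM21). At E10.5 the controls had 4.74, 2.85 and 3.33 CPM and the mutants 5.77, 6.72 and 2.64 CPM. The libraries of both genotypes overlapped, and the difference of 0.47 on the log2 scale was within the spread (SE 0.369, 95% interval -0.38 to 1.33, edgeR adjusted p = 0.531). At E11.5 the controls had 58.7, 45.5 and 34.7 CPM and the mutants 12.8, 7.26, 10.9 and 12.3 CPM. Every E11.5 mutant library lay below every E11.5 control, and every E11.5 mutant lay above every E10.5 library.

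The group means of Iigp1 were 3.64 ± 0.982 CPM (SD, n = 3) in E10.5 controls, 5.04 ± 2.14 (n = 3) in E10.5 mutants, 46.3 ± 12.1 (n = 3) in E11.5 controls and 10.8 ± 2.51 (n = 4) in E11.5 mutants. As a description, the E11.5 controls were 12.7-fold above the E10.5 controls, the E11.5 mutants 2.14-fold above the E10.5 mutants, and the E11.5 mutants 4.30-fold below the E11.5 controls. In log2 units these were 3.67 (SE 0.332), 1.10 (SE 0.302) and -2.10 (SE 0.219, 95% interval -2.58 to -1.62). The genotype difference at E11.5 minus that at E10.5 was -2.57 (SE 0.433). Without each library in turn, the E11.5 difference ran from -2.27 to -1.90 and the stage difference in mutants from 0.78 to 1.35. In the same E11.5 mutants, 1.81% of all genes tested were called higher than in controls and 0.689% lower. Among markers, 6 of 9 for epithelium, 1 of 16 for macrophages and leukocytes and 1 of 10 for endothelium were called higher. The summed levels of these lists were higher in every mutant library, the endothelium sum at 401 to 505 CPM against 299 to 373, and so was the cardiomyocyte sum at 921 to 5103 CPM against 65.7 to 881. In the direction of Iigp1, 1 of 7 pericyte and mural markers and 1 of 7 foregut mesenchyme markers were called lower, with overlapping sums. The part of these cells in the Iigp1 values was not tested.

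Iigp1 sits beside other IRG genes, which were measured in the same libraries. F830016B08Rik ends 73.0 kb before Iigp1 and Gm4841 lies 103 kb from it on the opposite strand, and both are annotated as protein coding. Gm4841 had 1.07, 1.23 and 1.90 CPM in E10.5 controls, 2.39, 1.68 and 1.43 in E10.5 mutants, 4.15, 3.10 and 3.06 in E11.5 controls, and 1.55, 1.16, 1.58 and 2.46 in E11.5 mutants. Its E11.5 mutants all lay below the E11.5 controls, with a log2 fold change of -1.04 (SE 0.339) that was not called. The genotype difference of Gm4841 at E11.5 minus that at E10.5 was -1.43 (SE 0.482, edgeR adjusted p = 0.223). F830016B08Rik differed by -0.42 (SE 0.280) between E11.5 genotypes, and its libraries overlapped. Between stages in controls both neighbours rose, Gm4841 by 1.29 on the log2 scale (SE 0.350, edgeR adjusted p = 0.0195) and F830016B08Rik by 1.16 (SE 0.295, adjusted p = 0.0141). The third neighbour, Gm4951, had 0 to 6 counts per library. IRG genes are close copies of one another, so the split of reads between them is uncertain.

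**Figure D2:**
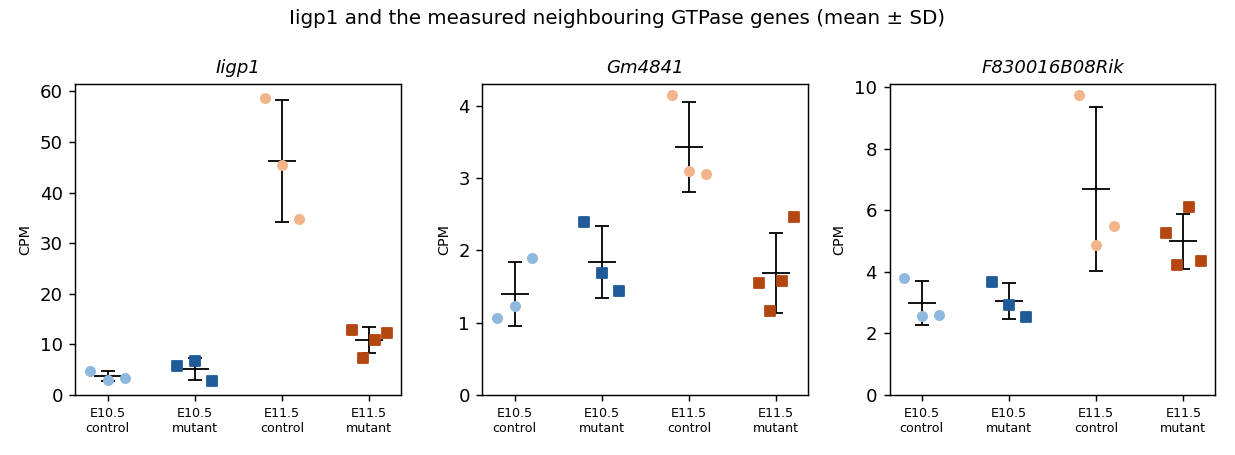
CPM of Iigp1, Gm4841 and F830016B08Rik in each library of the 4 groups, with a horizontal line for the mean and a bar for the SD. The E11.5 controls of Iigp1 reach 34.7 to 58.7 CPM against 7.26 to 12.8 CPM in the E11.5 mutants, and Gm4841 separates the same groups at 3.06 to 4.15 against 1.16 to 2.46 CPM.

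The question of whether other members shared the low E11.5 level of Iigp1 was put to the 20 members that passed the filter in the E11.5 fit. The call used elsewhere (adjusted p under 0.05) was met by 1 member, Iigp1, beside 0.689% of all 15376 genes called lower and 1.81% higher. Because this contrast chose the set, nothing is read from that count, and the values follow as a description. Of the 19 other members, 8 had log2 fold changes above 0 and 11 below, with a median of -0.04 beside -0.01 over all genes. The 95% interval lay within 1 of 0 on either side in 9 of them. The differences ran from -0.95 for Irf1 to 0.91 for Rsad2.

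The other GTPase members that were tested, Irgm2, Irgm1, Igtp and Gbp7, had E11.5 libraries that overlapped between genotypes. Irgm2, a regulatory IRG protein, had 4.55, 2.46 and 3.20 CPM in controls and 4.02, 2.90, 4.54 and 3.36 CPM in mutants, a log2 fold change of 0.13 (SE 0.299). Irgm1 differed by 0.09 (SE 0.419) and Igtp by -0.18 (SE 0.436). Gbp7, of the guanylate-binding proteins, differed by -0.64 (SE 0.292), and its mutants at 3.13 to 4.02 CPM overlapped the controls at 3.84 to 7.82. The genes of Igtp and Irgm2 share annotated exon sequence on the same strand, so the split of their reads is uncertain too.

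A few members had E11.5 libraries that did not overlap between genotypes. These were Iigp1, Irf1 and Oasl2, with mutants below controls, and Rsad2, with mutants above. With Iigp1 left out, because it chose the set, that is 3 of the 19 other members, where 16.9% of all genes tested had no overlap. Irf1, a transcription factor induced by interferon gamma, had 4.31, 4.51 and 5.26 CPM in E11.5 controls and 3.56, 1.52, 2.77 and 1.79 CPM in mutants (-0.95, SE 0.321). Oasl2, an antiviral protein related to oligoadenylate synthetases, had 5.59, 6.13 and 7.60 CPM in controls and 4.10, 1.96, 3.66 and 4.81 CPM in mutants (-0.84, SE 0.30). Rsad2, the antiviral enzyme viperin, had 1.68, 1.76 and 1.63 CPM in controls and 2.71, 1.96, 3.09 and 5.15 CPM in mutants (0.91, SE 0.376). The highest Rsad2 value came from mutant replicate 4, the library with the fewest counts.

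**Figure D3:**
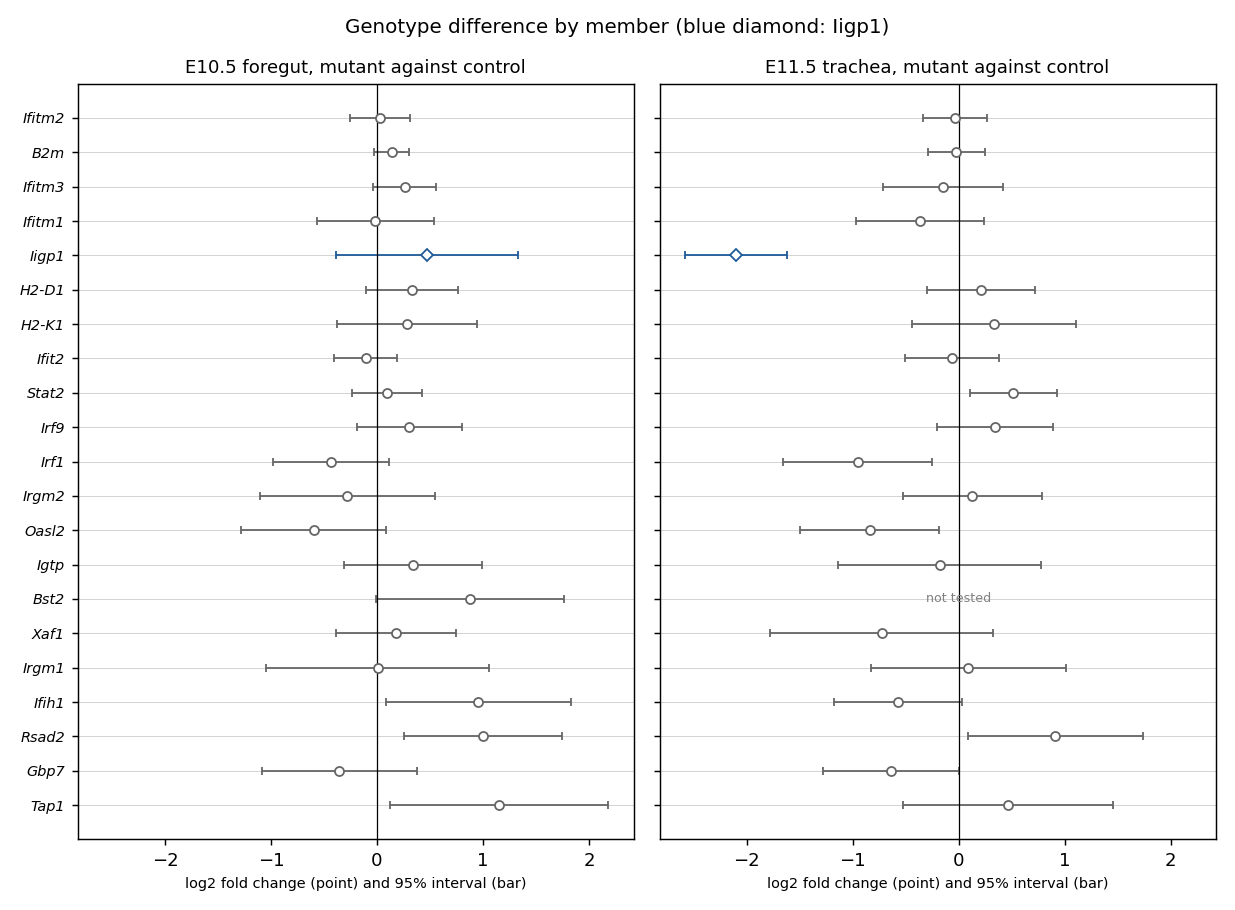
Log2 fold change of mutants against controls (points) with 95% intervals (bars) at E10.5 and at E11.5 on one scale, for the members tested at either stage. The blue diamond is Iigp1, at 0.47 at E10.5 and -2.10 at E11.5, and the other points at E11.5 lie between -0.95 and 0.91.

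No class I member separated by genotype at E11.5. B2m differed by -0.02 (SE 0.123), with 62.7 to 80.4 CPM in controls and 64.6 to 83.7 CPM in mutants. H2-D1 differed by 0.21 (SE 0.232), H2-K1 by 0.33 (SE 0.353) and Tap1, a subunit of the peptide transporter, by 0.46 (SE 0.451). H2-K1 and H2-D1 are close in sequence, and the Tap1 gene overlaps exons of Psmb9 on the other strand, so neither pair is surely resolved. The membrane restriction factors overlapped between genotypes too, with differences of -0.04 (SE 0.137) for Ifitm2, -0.15 (SE 0.259) for Ifitm3 and -0.36 (SE 0.275) for Ifitm1. Bst2 did not pass the filter at E11.5, where it had 0.479, 0.704 and 0.213 CPM in controls and 1.39, 0.508, 1.39 and 0.447 CPM in mutants.

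The E10.5 genotype contrast did not enter the rule that chose the set, although the members were listed with earlier results of these data known. No member was called in either direction among 21 tested, and DESeq2 also called none. Over all 15295 genes tested, 0.405% were called lower and 0.314% higher. The median log2 fold change of the tested members was 0.18, with 15 above 0 and 6 below, beside 0.03 over all genes. In 5 of the 21 members the libraries of the genotypes did not overlap, where 25% of all genes tested separated in either direction. The 5 were Tap1, Rsad2, Ifih1, Bst2 and B2m, each with mutants above controls. The share of all genes with mutants above controls is not given here, so nothing is read from that direction.

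The separated E10.5 members were mostly low genes. Ifih1, the cytoplasmic sensor of long double-stranded RNA also called MDA5, had 1.48, 0.726 and 1.21 CPM in controls and 1.57, 2.20 and 2.87 CPM in mutants (0.96, SE 0.377, adjusted p = 0.233). Rsad2 had 1.66, 1.68 and 0.898 CPM in controls and 2.45, 2.91 and 3.10 CPM in mutants (1.0, SE 0.321, adjusted p = 0.164). The lowest Ifih1 mutant was just above the highest control, whereas the Rsad2 groups stood well apart. Tap1 had 0.237, 0.615 and 0.475 CPM in controls and 0.991, 0.840 and 1.15 CPM in mutants (1.15, SE 0.445, adjusted p = 0.225). Bst2, a membrane protein that tethers budding viruses, had 0.592, 0.559 and 0.686 CPM in controls and 0.816, 1.49 and 1.09 CPM in mutants (0.87, SE 0.383, adjusted p = 0.269). B2m was the abundant one, at 53.0 to 58.8 CPM in controls and 59.4 to 64.5 CPM in mutants (0.14, SE 0.0708, adjusted p = 0.339). None of the 5 passed the test by edgeR's quasi-likelihood method with Benjamini-Hochberg adjustment over all genes. In the same mutants the summed macrophage and leukocyte markers were above those of every control, with 0 of the 13 tested markers called. The endothelium sum was also higher, at 335.1 to 470 CPM against 293 to 334.6 with 1 of 10 markers called, as were the cardiomyocyte sum at 133 to 2270 against 81.3 to 92.2 and the sum of 8 immediate early genes at 130 to 150 against 117 to 119. The foregut mesenchyme sum was lower, at 488 to 574 CPM against 604 to 832, with 1 of 7 markers called lower. The part of such cells, and of the immediate early genes, in these values was not tested.

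**Figure D4:**
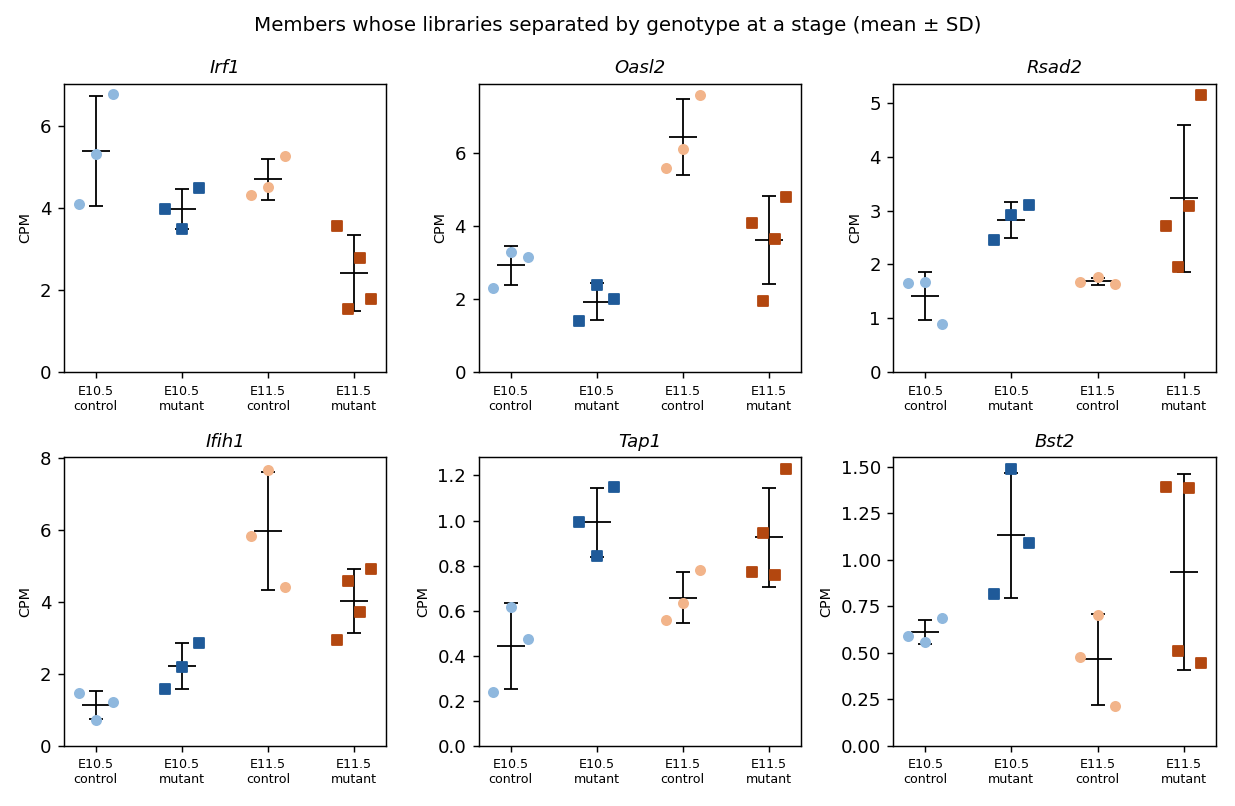
CPM per library, with a line for the mean and a bar for the SD, of the low and mid-level members whose control and mutant libraries did not overlap at a stage. Irf1 and Oasl2 show E11.5 mutants under the controls, Rsad2 shows mutants above controls at both stages, and Ifih1, Tap1 and Bst2 show mutants above controls at E10.5.

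Whether the genotype difference itself changed between stages was tested by an interaction term over all 13 libraries. The interaction of Iigp1 contains the E11.5 values that chose the set and is given above with no test. Of the 21 other members tested, edgeR and DESeq2 called none, where 0.0248% of all 16132 genes were called by edgeR. The widest change among them was that of Ifih1, whose genotype difference was 0.96 at E10.5 and -0.57 (SE 0.276) at E11.5. The change of -1.52 (SE 0.458, edgeR adjusted p = 0.197) did not pass after adjustment.

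Stage was compared within each genotype, with the dissected tissue and depth changing along with it, so the 3 cannot be told apart. Iigp1 is left out of these counts, because its E11.5 values chose the set. In controls, Ifih1, Gbp7, Oasl2 and B2m were higher at E11.5 and Ifitm1 was lower, which is 4 higher and 1 lower of the 21 other members tested. Over all genes, 11.2% were called higher and 10.1% lower, and the median log2 fold change was 0.06 for these members and 0.03 for all genes. In mutants, Stat2 was higher and Ifitm1 and Xaf1 lower, which is 1 and 2 of 21, where 8.12% of all genes were called higher and 7.4% lower. The stages did not overlap in 7 of the 21 members in controls and 6 of 21 in mutants, beside 41.7% and 28.1% of all genes. The summed macrophage and leukocyte markers were also higher at E11.5 in each genotype, with 10 of 16 called higher in controls and 10 of 16 in mutants. Of the 9 epithelium markers 7 were called lower in controls and 2 in mutants, and 3 of 7 foregut mesenchyme markers were called higher in each genotype. The part of these cells in the stage differences was not tested.

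Among the members tested, Ifih1 had the widest stage difference in controls after Iigp1. It went from 1.48, 0.726 and 1.21 CPM at E10.5 to 5.83, 7.67 and 4.41 CPM at E11.5, a log2 fold change of 2.38 (SE 0.346, edgeR adjusted p = 0.000548). In mutants it went from 1.57, 2.20 and 2.87 to 2.94, 4.57, 3.72 and 4.92 CPM, a change of 0.86 (SE 0.313, adjusted p = 0.0789). The stages did not overlap in either genotype. Oasl2 rose in controls from 2.31, 3.30 and 3.17 to 5.59, 6.13 and 7.60 CPM (1.14, SE 0.313, adjusted p = 0.0204). In mutants Oasl2 had 1.40, 2.39 and 2.01 CPM at E10.5 and a difference of 0.90 (SE 0.310, adjusted p = 0.0648). Its mutant stages overlapped through E11.5 mutant replicate 2 at 1.96 CPM. The call of Oasl2 in controls ended without E10.5 control replicate 1 or 3 or E11.5 control replicate 2 or 3, with adjusted p up to 0.0836.

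Gbp7 rose in controls from 2.72, 2.01 and 2.43 to 7.82, 4.37 and 3.84 CPM (1.16, SE 0.313, edgeR adjusted p = 0.0187). In mutants it had 2.33, 1.23 and 2.01 CPM at E10.5 and 4.02, 3.19, 3.34 and 3.13 CPM at E11.5 (0.88, SE 0.305, adjusted p = 0.0665). The control call leaned on the highest library, E11.5 control replicate 1, without which the change was 0.78 (adjusted p = 0.0879), and it also ended without E10.5 control replicate 2 or 3. B2m rose in controls from 58.8, 53.0 and 55.4 to 77.8, 80.4 and 62.7 CPM (0.40, SE 0.111, adjusted p = 0.0206). In mutants B2m differed by 0.25 (SE 0.104, adjusted p = 0.123). The B2m call in controls ended without any 1 of E10.5 control replicates 2 and 3 and E11.5 control replicates 1 and 2, with changes of 0.32 to 0.49 over the 6 libraries left out in turn.

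Ifitm1, which restricts virus entry and marks embryonic mesoderm and germ cells, fell with stage in each genotype. In controls it went from 11.4, 9.16 and 6.92 to 4.55, 5.0 and 3.62 CPM (-1.06, SE 0.260, edgeR adjusted p = 0.0119). In mutants it went from 9.16, 6.92 and 11.1 to 3.25, 4.64, 3.03 and 2.68 CPM (-1.40, SE 0.243, adjusted p = 0.00218). No E11.5 library reached the lowest E10.5 library. Without E10.5 control replicate 1 the control change was -0.88 (adjusted p = 0.0516). The neighbouring family members did not pass the test, at -0.07 (SE 0.146) for Ifitm2 and -0.14 (SE 0.249) for Ifitm3 in controls. In mutants Ifitm2 differed by -0.13 (SE 0.136) and Ifitm3 by -0.54 (SE 0.231, adjusted p = 0.132), and neither was called. Ifitm proteins are close copies whose reads may be split unevenly.

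Stat2 rose in mutants from 12.1, 11.9 and 15.4 to 16.8, 24.9, 23.6 and 26.7 CPM (0.81, SE 0.166, edgeR adjusted p = 0.00621). In controls it went from 13.1, 12.2 and 11.8 to 18.8, 14.5 and 14.9 CPM (0.38, SE 0.176, adjusted p = 0.138). The stages did not overlap in either genotype, and the test of the difference between genotypes gave 0.43 (SE 0.241, adjusted p = 0.436). Xaf1, an interferon-induced protein that favours cell death, fell in mutants from 2.97, 3.43 and 2.52 to 0.851, 2.18, 1.51 and 0.447 CPM (-1.21, SE 0.388, adjusted p = 0.0494). In controls the Xaf1 stages overlapped (-0.31, SE 0.406, adjusted p = 0.623). The Xaf1 call ended on leaving out any mutant library except E11.5 mutant replicate 2, with adjusted p up to 0.128.

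**Figure D5:**
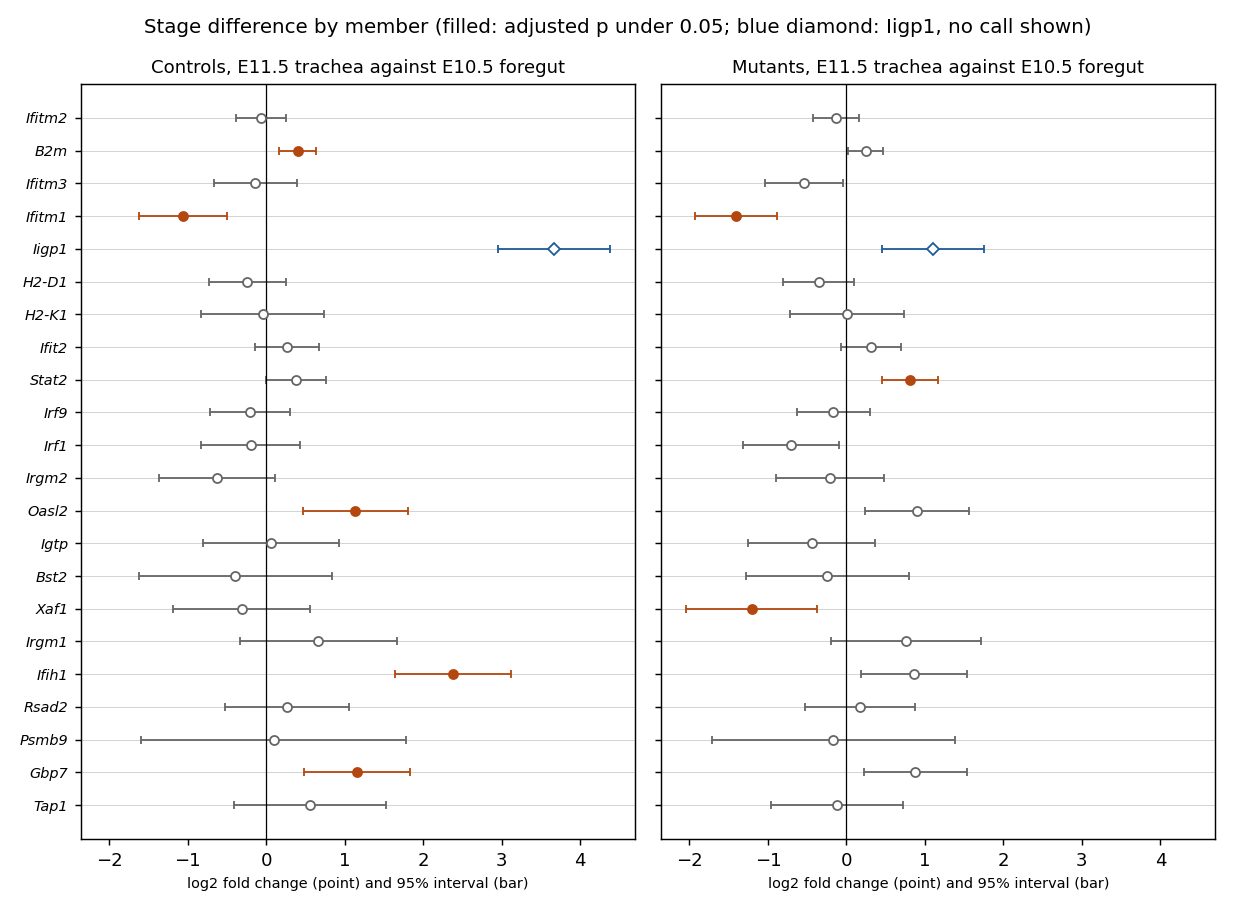
Log2 fold change of E11.5 trachea against E10.5 foregut (points) with 95% intervals (bars) for the 22 tested members, in controls and in mutants on one scale. Filled points passed the test, and Iigp1, the blue diamond, is shown with no call. Iigp1 lies at 3.67 in controls and 1.10 in mutants, Ifih1 at 2.38 and 0.86, and Ifitm1 below 0 in both.

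The members not called between stages included most of the class I group and the regulatory IRG genes. H2-D1 ranged from 6.94 to 16 CPM and H2-K1 from 2.95 to 9.96 CPM over the 13 libraries, with stage differences of -0.24 (SE 0.227) and -0.04 (SE 0.365) in controls, neither called. Psmb9, an immunoproteasome subunit, had 0 to 12 counts per library and was tested only in the fit of all libraries, where its control stage difference was 0.09 (SE 0.787). Ifit2 had 12.3 to 22.6 CPM and Irf9 3.87 to 7.11 CPM, and neither was called in any contrast. Irgm2, Irgm1, Igtp, Bst2, Tap1, Rsad2, Irf1, Ifitm2 and Ifitm3 were not called in any contrast either.

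The rest of the pathway was followed with 164 listed genes, of which 163 were in the table. None of the 17 interferon genes on the list passed the filter. Of these ligands 11 had 0 counts in all libraries, and the highest had 4 counts over the 13 libraries. Between stages in controls the kinases Jak1 (0.34, SE 0.0960, edgeR adjusted p = 0.0237) and Jak2 (0.46, SE 0.136, adjusted p = 0.0274) and the receptor chain Ifngr2 (0.44, SE 0.128, adjusted p = 0.0257) rose, and in mutants Jak1 rose (0.42, SE 0.0906, adjusted p = 0.00807).

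Between genotypes none of these pathway genes was called by edgeR, of 95 tested at E10.5 and 102 at E11.5. Over all genes, 0.405% were called lower and 0.314% higher at E10.5, and 0.689% and 1.81% at E11.5. Median log2 fold changes of the pathway genes were 0.09 at E10.5 and 0.06 at E11.5, beside 0.03 and -0.01 over all genes. In E11.5 mutants Ddx58, which encodes the RNA sensor RIG-I, differed by 1.28 (SE 0.361), Ifi204 by 2.02 (SE 0.664), Herc6 by -0.78 (SE 0.273) and the nonclassical class I gene H2-T23 by -0.84 (SE 0.283), and none of them was called. These examples point in both directions but do not show the balance over the pathway. By list, E11.5 medians ran from -0.14 for the other class I genes, the only negative one, to 1.05 for class II genes. The class II list had 4 tested genes, and the other interferon regulatory factors had a median of 0.54 over 6 tested.

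Between stages, 15 of 107 tested pathway genes were called higher and 6 lower at E11.5 in controls, and 9 higher and 2 lower in mutants. Over all genes these shares were 11.2% and 10.1% in controls and 8.12% and 7.4% in mutants, so nothing particular to the pathway is read from the counts. Ctss, a lysosomal protease of class II presentation that macrophages make in quantity, rose by 3.44 in controls (SE 0.440, edgeR adjusted p = 0.000240) and 2.52 in mutants (SE 0.393, adjusted p = 0.00102). Of the 4 class II genes tested, 1 was called higher and 1 lower in controls, with a median of 0.05. The lower one was H2-Ab1 (-1.15, SE 0.371, adjusted p = 0.0410). In mutants 2 were called higher, Ctss and Cd74 (3.12, SE 0.825, adjusted p = 0.0219), and none lower. The interferon-inducible genes Lgals9 (1.83, SE 0.335, adjusted p = 0.00239) and Ifi207 (2.42, SE 0.498, adjusted p = 0.00453) rose in controls, as they did in mutants by 1.59 (SE 0.306) and 1.89 (SE 0.433). Tmem173, which encodes the adaptor STING, rose in controls (0.67, SE 0.155, adjusted p = 0.00830), and Ddx58 (-1.10, SE 0.344, adjusted p = 0.0364) and Samhd1 (-0.36, SE 0.10, adjusted p = 0.020) fell. The proteasome subunit Psmb7 fell in controls (-0.40, SE 0.0995, adjusted p = 0.0135) and in mutants (-0.36, SE 0.0927, adjusted p = 0.0186).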

How the data were processed

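The 34 members and all gene lists were chosen with earlier results of these data known. RNA was sequenced as single 75-base reads. Per the labels, the submitters' processing notes name RSEM 1.3.0 and the mm10 build, and the authors deposited estimated counts per gene, given as whole numbers, and TPM for each library. Counts were tested as deposited with edgeR 4.0.16 in R 4.3.3 (filterByExpr, TMM, quasi-likelihood test, Benjamini-Hochberg over all genes tested, call at adjusted p under 0.05). Each stage was fitted alone for genotype, and all 13 libraries together for stage and interaction. CPM used the TMM sizes of the 13-library fit. Alternatives were other scalings and filters, DESeq2 1.42.0, limma 3.58.1 on log2(TPM + 1) or log2(TPM + 0.1), a replicate block, a fold threshold and each library left out in turn. The fitting script was tested on simulated data. Replicates are described as separate embryo dissections. The methods state fewer E11.5 mutant libraries than the 4 used here. Library values were given for Iigp1, for members called in any contrast, and for members whose genotypes did not overlap at a stage with a log2 difference of 0.5 or more in either direction; others were given by range or examples by highest TPM, and of each pathway list up to 4 genes with the smallest adjusted p. B2m at E10.5 and single IRG, Ifitm and class I values were added after their values were seen. By annotation, 13 members overlap an exon of another gene, 7 of them a gene that is in the count table, and without strand such reads cannot be told apart. The name of the Cre allele and the values of 1 pathway gene are not reported here.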

Additional observations from a re-analysis of the deposited data

Results flagged for a closer look

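Of the 34 members checked in the 4 E11.5 mutant libraries, 1 had a library far from the others, where chance flags about 1 in 20. Ifitm3 had 36.8 CPM in E11.5 mutant replicate 2, with the next library at 20.1 CPM and the lowest at 17.5 CPM. Ifitm3 was not called in any contrast.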

How the results depend on the processing

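The E10.5 counts of 0 lower and 0 higher and the E11.5 counts of 1 lower and 0 higher were the same under all 10 other settings and with each library left out. The 1 lower call at E11.5 was Iigp1, which chose the set, so nothing is read from its staying. Stage calls in controls were 5 higher and 1 lower under the 5 other settings, and 2 to 4 higher and 0 to 1 lower with a library left out. Stage calls in mutants (2 higher, 2 lower, Iigp1 included) became 4 higher with DESeq2, and 1 lower with no filter or with at least 10 counts in every library, and ran from 1 to 3 in each direction with a library left out. These counts include Iigp1, whose E11.5 values chose the set. The interaction count of 0 became 1 with no filter and with DESeq2, and ran from 0 to 1 with a library left out; the added call was Iigp1, without E10.5 mutant replicate 3 or E11.5 control replicate 1, and nothing is read from it. The Iigp1 stage difference in mutants (1.10) ran from 0.78 to 1.35 with a library left out. It was no longer past the threshold without E10.5 mutant replicate 1 or 3 or E11.5 mutant replicate 1 or 4. The E11.5 values of Iigp1 chose the set, so nothing is read from that threshold either way. The causes were not tested. With library size alone as the scaling, the share of higher calls over all genes went from 72.5% to 62.2% at E11.5 and from 52.3% to 36.7% between stages in mutants. Same-numbered controls and mutants correlated at 0.0810, 0.141 and 0.176 at E10.5 and at -0.0877, -0.0808 and 0.112 at E11.5, so the numbers were not taken as pairs, although at E10.5 each library correlated best with its own number. The replicate block left 0 members called at E10.5 and 1 at E11.5. Calls over all genes moved from 110 to 82 and from 385 to 165 in the same order. Rsad2 in E11.5 tissue changed from 0.91 to 0.58. Mutant replicate 4 has no control of the same number, so it dropped out of the blocked E11.5 comparison. That library held the highest Rsad2 value, 5.15 CPM. Leaving out 1 library, with no block, took Rsad2 as low as 0.60. The E11.5 shifts therefore cannot be put down to the block alone. On the log2(TPM + 1) scale, which shrinks low genes, Ifih1 at E10.5 was 0.30 and Rsad2 at E11.5 was 0.39. Low counts limit the 12 untested members.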
